A study of Mus musculus with 14 samples.

Results

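These are the bone marrow microRNA (miRNA) profiles of mice that received only phosphate-buffered saline (PBS) before 0 or 8 Gy of gamma radiation. They make up 4 of the series' 14 arrays, and 4 of its 10 bone marrow arrays, and were chosen by their labels: bone marrow, PBS pretreatment, 2 arrays at 0 Gy and 2 at 8 Gy. At each dose PBS was injected into the abdomen (i.p.) for 1 array and given into the stomach (i.g.) for the other. The animals were male C57BL/6 mice aged 6 to 8 weeks, marrow was taken 12 h after exposure, and each array carried the RNA of 3 mice pooled. A pool averages its mice, so the spread between the arrays of a dose holds pool, route and array differences and not the spread between animals. The other 6 bone marrow arrays, used here only for comparison, came from mice given amifostine (10 mg/kg i.p., 0.5 h before), CBLB502 (0.2 mg/kg i.p., 0.5 h before) or nilestriol (150 mg/kg i.g., 48 h before), with 1 array per drug and dose. The 4 hypothalamus arrays were not used here.

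A miRNA is a short RNA that guides the silencing machinery to messenger RNAs, chiefly through its seed, bases 2 to 8 from the 5′ end. Bone marrow makes red cells, granulocytes, monocytes, platelets and B lymphocytes from common progenitors, and each lineage carries characteristic miRNAs. Ionizing radiation breaks DNA and activates the transcription factor p53, and dividing and lymphoid marrow cells are among the most radiosensitive cells of the body. In a bulk tissue such as this, fewer cells of a type and less RNA per cell cannot be told apart.

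The mature sequences of the miRNAs to which the results return most often are shown here, 5′ to 3′, with the seed in capitals. They are RefSeq entries on mouse build GRCm38.p6, in which 288 of the 362 tested miRNAs were found by name, 7 of them under a later name with an added letter. The first set shows miR-34a-5p, a direct p53 target, and the red cell miRNAs miR-451a and miR-144-3p, whose genes lie side by side on chromosome 11 (miR-144-3p at chr11:78073047-78073066 and miR-451a at chr11:78073186-78073207, plus strand).
miR-34a-5p: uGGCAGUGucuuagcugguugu
miR-451a: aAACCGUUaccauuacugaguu
miR-144-3p: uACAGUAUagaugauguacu

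The 4 members of the miR-181 family, abundant in developing lymphocytes, share the seed ACAUUCA and differ beyond it.
miR-181a-5p: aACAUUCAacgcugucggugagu
miR-181b-5p: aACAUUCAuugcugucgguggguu
miR-181c-5p: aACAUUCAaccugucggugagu
miR-181d-5p: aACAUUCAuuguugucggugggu

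The miR-15/16 family, which restrains the cell cycle, shares the seed AGCAGCA.
miR-16-5p: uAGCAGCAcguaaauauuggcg
miR-15a-5p: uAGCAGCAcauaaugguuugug
miR-15b-5p: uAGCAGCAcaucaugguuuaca
miR-195a-5p: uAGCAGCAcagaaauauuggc

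miR-363-3p, miR-25-3p and miR-92a-3p share the seed AUUGCAC. miR-363 lies on the X chromosome beside 1 of the miR-92a genes, the other miR-92a gene is in the miR-17-92 cluster on chromosome 14, and miR-25 is in the miR-106b-25 cluster on chromosome 5. Their values after irradiation are set side by side below.
miR-363-3p: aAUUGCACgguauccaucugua
miR-25-3p: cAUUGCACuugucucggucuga
miR-92a-3p: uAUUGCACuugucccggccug

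Each array gave a fluorescence intensity for 1247 miRNAs, of which 332 to 367 were detected per PBS array and 862 on none of the 4. Detected miRNAs had a median signal of 45.4 to 66.4 intensity units per array, against a standard deviation of 2.54 to 3.06 among negative control spots, and no spot was saturated. With 2 arrays a dose the number of arrays limits the precision. Below, a level is the log2 signal relative to the array's own scaling value, with a floor at -5.29. A difference is the mean level of the 2 arrays at 8 Gy minus that of the 2 arrays at 0 Gy, ± the standard error of the limma fit. The 362 miRNAs detected on at least 2 of the 4 arrays were tested, and 313 of them were detected on all 4. The labelled tissue showed in its markers: the red cell, lymphoid and myeloid markers miR-451a, miR-181a-5p, miR-150-5p, miR-223-3p and miR-142-3p were detected on all 4 arrays. The liver marker miR-122-5p and the neuronal markers miR-124-3p and miR-9-5p were on none. The muscle miRNAs miR-1a-3p, miR-133a-3p and miR-133b-3p and the neuronal list's miR-128-3p were also on all 4, and the muscle miRNA miR-206-3p on none.

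The question of the comparison was which marrow miRNAs differed 12 h after 8 Gy with no drug given. With limma, 0 of the 362 miRNAs passed an adjusted p of 0.05, while 125 (34.5%) passed 0.05 unadjusted. With any 1 array left out the latter count was 67 to 86. Of the 125, 70 (19.3% of the tested) were higher and 55 (15.2%) lower after 8 Gy. Both 8 Gy arrays lay above both 0 Gy arrays for 126 miRNAs (34.8%) and below both for 101 (27.9%). The smallest adjusted p of the limma fit was 0.0531, that of miR-34a-5p, and the next, 0.0926, was shared by 27 miRNAs. The count changed with the processing. With normexp background correction 65 passed and with an offset in place of a floor 95, and miR-34a-5p was among both. Without scaling, 89.3% of the miRNAs under an unadjusted 0.05 were higher, against 56.0% here. An exact permutation test of 2 against 2 arrays cannot go below p = 0.333, so the fit across all miRNAs was the test used. Because nothing passed, members are described below by their levels, their difference and whether the arrays of the doses overlap.

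The arrays of a dose resembled each other more than they did the arrays of the other dose. Across the 313 miRNAs detected on all 4 arrays, which share arrays and are not independent, Pearson's r was 0.993 between the 0 Gy arrays and 0.993 between the 8 Gy arrays, against 0.974 to 0.983 between doses. The median gap between levels was 0.19 at either dose, and 0.35 and 0.28 from 0 to 8 Gy with i.p. and i.g. PBS. The i.p. and i.g. differences correlated at r = 0.744 (Spearman 0.711) across the 362 miRNAs, and 280 had the same sign in both. The middle of all differences was 0.04, from -0.75 at the 5th to 0.93 at the 95th percentile.

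**Figure D1:**
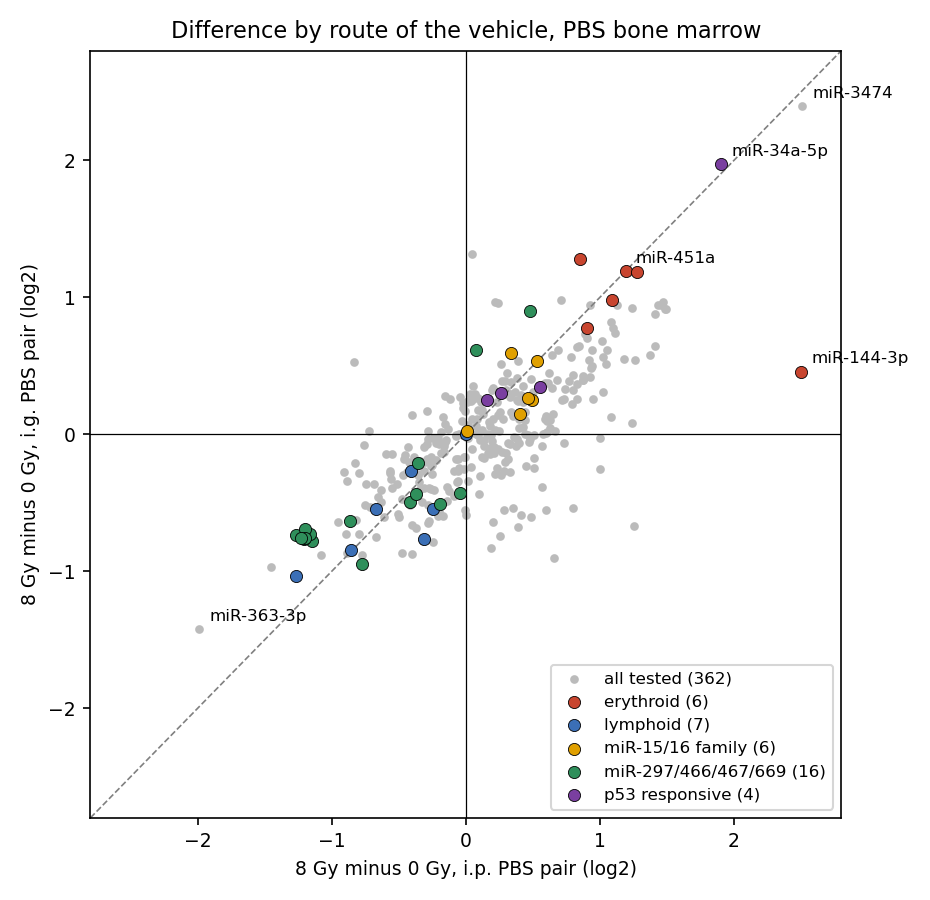
Each point is 1 of 362 tested miRNAs, with the 8 Gy minus 0 Gy difference (log2) in the i.p. PBS pair on the x axis and in the i.g. PBS pair on the y axis. Coloured points are members of 5 lists and the dashed line marks equal differences; miR-34a-5p lies close to it at 1.90 and 1.97, the red cell miRNAs lie in the upper right, with miR-144-3p off the line at 2.50 and 0.46, and most of the miR-466 group (miR-297, miR-466, miR-467 and miR-669) lies in the lower left.

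miR-34a-5p was the clearest single difference. Its level was -2.07 and -2.20 on the 0 Gy arrays (i.p. and i.g.) and -0.16 and -0.23 on the 8 Gy arrays. The doses did not overlap, the arrays of a dose lay within 0.13 of each other, and the difference was 1.94 ± 0.08, or 3.83-fold (adjusted p = 0.0531 with limma). It is transcribed directly by p53 and lowers cyclins, CDKs and BCL2. The other 3 tested members of the p53 responsive list lay above on both 8 Gy arrays too, as did 34.8% of all tested miRNAs. miR-194-5p, made from a hairpin that p53 also activates, went from -3.47 and -3.51 to -2.91 and -3.17, a difference of 0.45 ± 0.12. Its cluster partner miR-192-5p differed by 0.28 ± 0.09, and miR-107-3p, which lies in an intron of a pantothenate kinase gene, by 0.20 ± 0.09. Of the 4, 3 had an unadjusted p under 0.05, where 19.3% of all tested miRNAs were higher at such a p. The list's median difference was 0.37 (0.12 with normexp) against 0.04 for all tested miRNAs. The 6 remaining members on the array, among them the miR-34b and miR-34c arms, were detected on 0 of the 4 arrays.

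Red cell miRNAs had the highest list median. miR-451a, which promotes the maturation of red cell precursors, had levels of 6.94 and 6.71 at 0 Gy and of 8.13 and 7.90 at 8 Gy. The doses did not overlap, and the difference was 1.19 on either route and 1.19 ± 0.15 in the fit, or 2.28-fold (adjusted p = 0.0926 with limma). miR-144-3p, from the same primary transcript, went from -1.05 and -0.13 to 1.45 and 0.33. It was higher by 2.50 with i.p. and by 0.46 with i.g. PBS, so that its difference of 1.48 ± 0.59 has a 95% interval from -0.39 to 3.35. The other arm, miR-144-5p, was steadier, going from -0.63 and -0.80 to 0.27 and -0.03, a difference of 0.84 ± 0.15.

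miR-486 is a red cell miRNA whose mirror-image hairpin carries the array's name miR-3107. miR-3107-5p had levels of 1.72 and 1.38 at 0 Gy and of 3.0 and 2.57 at 8 Gy, a difference of 1.23 ± 0.23. miR-3107-3p (1.04 ± 0.16) and miR-486-3p (1.07 ± 0.21) were also higher on both 8 Gy arrays, and miR-3107-3p was detected on only 1 of the 2 arrays at 0 Gy. In all, 6 of 6 red cell list members lay above on both 8 Gy arrays, against 34.8% of all tested miRNAs. An unadjusted p under 0.05 was reached by 5, where 19.3% of all tested were higher at such a p. The list's median difference was 1.13. These members are not separate observations: miR-451a and the miR-144 arms share a primary transcript, and the miR-486 and miR-3107 hairpins mirror each other. The summed scaled signal of the list, in which miR-451a weighs most, was 127 and 109 at 0 Gy and 293 and 247 at 8 Gy. miR-451a alone made up 11.5% and 9.74% of the summed signal of all miRNAs at 0 Gy and 21.0% and 18.3% at 8 Gy. These are shares of fluorescence, not of molecules.

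**Figure D2:**
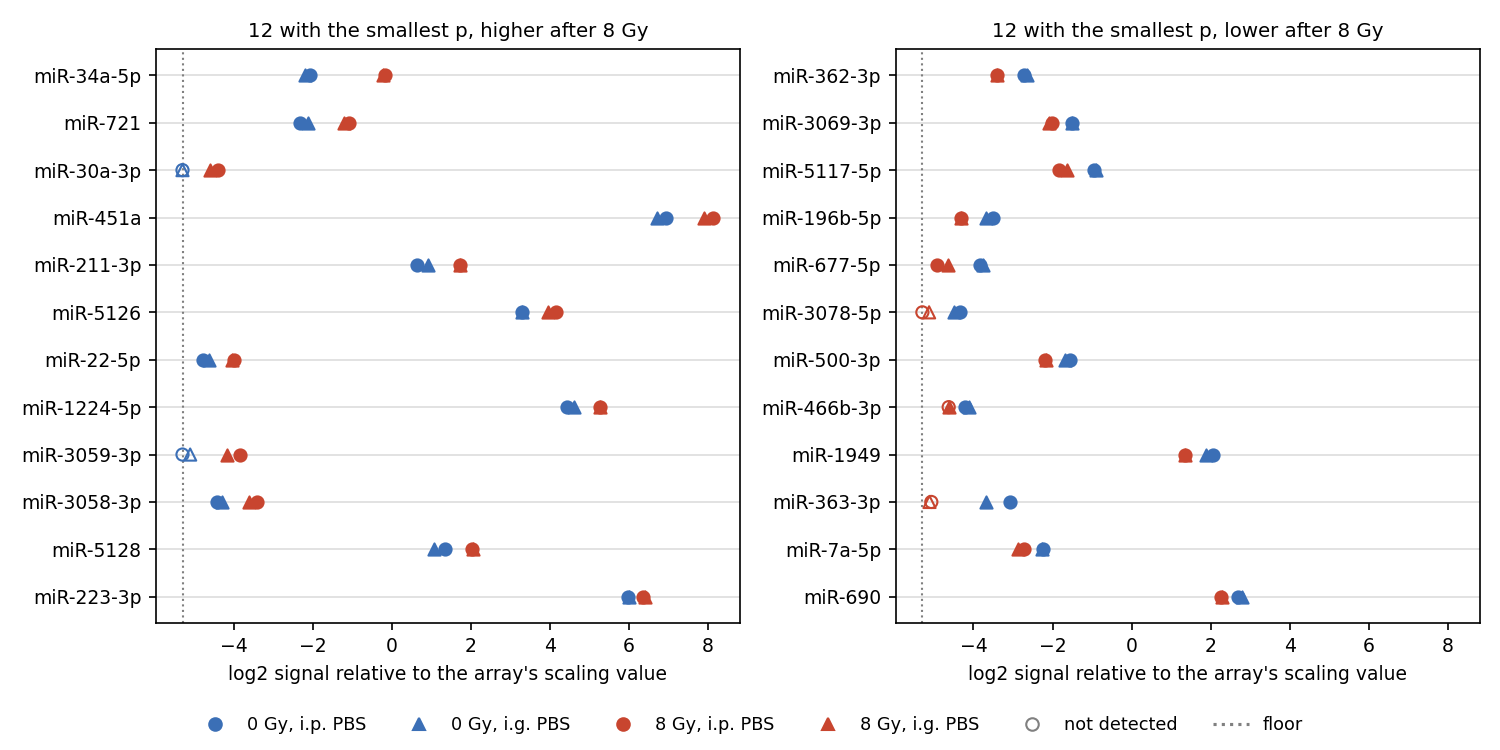
Levels (log2 signal relative to the array's scaling value, x axis) of the 12 higher and 12 lower miRNAs with the smallest p, 1 row each, with blue for 0 Gy, red for 8 Gy, circles for i.p. and triangles for i.g. PBS. Open symbols are arrays on which the miRNA was not detected and the dotted line is the floor at -5.29; in every row the red and blue symbols do not overlap, and the gap is widest for miR-34a-5p.

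Lymphoid miRNAs were lower. miR-181b-5p, which acts in B and T cell development, went from -0.64 and -1.04 at 0 Gy to -1.90 and -2.07 at 8 Gy. The doses did not overlap, and the difference was -1.15 ± 0.19, or 2.22-fold lower (adjusted p = 0.098 with limma). Its neighbour miR-181a-5p, which sets the sensitivity of T cell receptor signalling, went from 0.08 and -0.24 to -0.78 and -1.09 (-0.85 ± 0.19). The other cluster gave smaller values, with miR-181d-5p at -0.61 ± 0.13 and miR-181c-5p at -0.40 ± 0.12. So all 4 miRNAs with the seed ACAUUCA lay below on both 8 Gy arrays, against 27.9% of all tested miRNAs. Their median was -0.73. Each had an unadjusted p under 0.05, where 15.2% of all tested were lower at such a p.

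miR-150-5p, the mature lymphocyte miRNA that limits MYB, went from 0.32 and 0.39 to 0.01 and -0.38, a difference of -0.54 ± 0.17. miR-155-5p, induced in activated lymphocytes and macrophages, differed by -0.34 ± 0.15. Of 7 tested members of the lymphoid list, 6 were below on both 8 Gy arrays, 5 with an unadjusted p under 0.05. The shares over all tested miRNAs were 27.9% below and 15.2% lower at such a p. The list's median was -0.54 (-0.33 with normexp), and the remaining member, miR-150-3p, was at the floor on all 4 arrays. That level averages in probes that were not detected. The miR-150-3p probe that was detected on all 4 arrays was higher at 8 Gy before scaling, by 1.08 (i.p.) and 0.17 (i.g.), unlike miR-150-5p. The summed scaled signal of the list was 3.73 and 3.33 at 0 Gy and 2.44 and 1.99 at 8 Gy. The markers of red cells and lymphocytes thus differed between the doses in these pools, though 0 of them passed an adjusted 0.05 with limma. The part that cell numbers had in these or in other differences was not tested.

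Granulocyte and monocyte miRNAs differed little, apart from 1. miR-223-3p, the chief miRNA of neutrophils, had tight levels of 5.98 and 5.99 at 0 Gy and of 6.36 and 6.40 at 8 Gy. The doses did not overlap and the difference was 0.40 ± 0.06, or 1.32-fold (adjusted p = 0.0926 with limma). The arms of miR-142, present in all blood cells, went opposite ways on the routes: miR-142-3p was 2.77 and 3.38 at 0 Gy and 3.16 and 2.70 at 8 Gy. Its difference was -0.14 ± 0.31 and that of miR-142-5p -0.09 ± 0.29, and the doses overlapped. The median of the 7 tested myeloid miRNAs was 0.07, near the 0.04 of all miRNAs (and -0.10 with quantile normalization). On both 8 Gy arrays 2 of the 7 lay above, against 34.8% of all tested miRNAs.

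miRNAs of stem and progenitor cells gave no common direction, with 8 of 12 tested members higher, 4 lower and a median of 0.12. Positive differences were found in 195 of all 362 tested miRNAs. miR-196b-5p, a HOXA cluster miRNA of early progenitors, went from -3.50 and -3.68 to -4.32 and -4.31, a difference of -0.72 ± 0.09 without overlap (adjusted p = 0.0926 with limma). miR-221-3p, which represses the KIT receptor and the cell cycle inhibitor p27, was higher by 0.34 ± 0.06 and its cluster partner miR-222-3p by 0.32 ± 0.16. miR-126-3p, a miRNA of endothelial and stem cells, was higher on each route, but its levels of -0.61 and -0.17 at 0 Gy overlapped with -0.35 and 0.34 at 8 Gy.

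Of 6 tested members of the miR-15/16 family, 4 were above on both 8 Gy arrays, against 34.8% of all tested miRNAs. miR-16-5p went from 4.47 and 4.30 to 5.0 and 4.83, a difference of 0.53 ± 0.11 and of 0.53 on either route. miR-15b-5p, from the same chromosome 3 cluster, differed by 0.46 ± 0.12, miR-15a-5p by 0.37 ± 0.10 and miR-195a-5p by 0.36 ± 0.10. These 4 lay above on both 8 Gy arrays with an unadjusted p under 0.05, while miR-497-5p (0.27 ± 0.22) and miR-322-5p (0.02 ± 0.07, but -0.0038 with normexp) overlapped. The family's median was 0.37 and kept its sign under quantile normalization at 0.13, where miR-16-5p was also at 0.13. miR-16 is encoded beside miR-15a too. miR-16-5p and miR-451a are both abundant in red cells, and miR-16-5p was higher alongside the red cell list. The let-7 family, which marks differentiated cells, had 9 of 9 members higher, against 195 of all 362 tested miRNAs. Their differences were only between 0.03 and 0.18, and the family's median of 0.14 became -0.083 with quantile normalization. With limma, 0 of the 9 passed even an unadjusted 0.05.

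The miR-17-92 cluster and its paralogs, targets of MYC and E2F in dividing cells, gave small differences. All 8 tested miRNAs of the chromosome 14 cluster had negative differences, against 154 of all 362 tested miRNAs. The values lay between -0.40 (miR-19b-3p, ± 0.09) and -0.14 (miR-92a-3p, but 0.017 without scaling). Both miR-19b-3p and miR-92a-3p are also encoded on the X chromosome. miR-19a-3p went opposite ways on the routes, with 0.46 (i.p.) and -0.65 (i.g.) for a probe before scaling. miR-18a-5p differed by -0.38 ± 0.13, miR-17-5p by -0.27 ± 0.15 and miR-20a-5p by -0.20 ± 0.12. The 5 tested miRNAs of the paralogous miR-106b-25 cluster were mixed, with miR-25-3p at 0.38 ± 0.14, miR-93-5p at 0.21 ± 0.13, miR-106b-5p at 0.19 ± 0.13, miR-106b-3p at -0.14 ± 0.14 and miR-93-3p at the floor on all 4 arrays. None of these 5 had an unadjusted p under 0.05. Of the 15 tested members 2 had an unadjusted p under 0.05, both lower, where 15.2% of all tested miRNAs were lower at such a p.

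The lowest of all 362 differences belonged to miR-363-3p, whose gene lies on the X chromosome beside miR-20b. Its levels were -3.08 and -3.69 at 0 Gy, where both arrays detected it, and -5.07 and -5.11 at 8 Gy, where neither did. It was thus 3.26-fold lower (adjusted p = 0.0926 with limma), an estimate that rests on undetected values near the floor at 8 Gy. Its cluster partner miR-20b-5p differed by -0.32 ± 0.14. The miRNAs of the seed AUUGCAC therefore spread from -1.71 for miR-363-3p through -0.14 for miR-92a-3p to 0.38 for miR-25-3p, whereas the 4 members of the miR-181 seed lay on 1 side of 0.

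**Figure D3:**
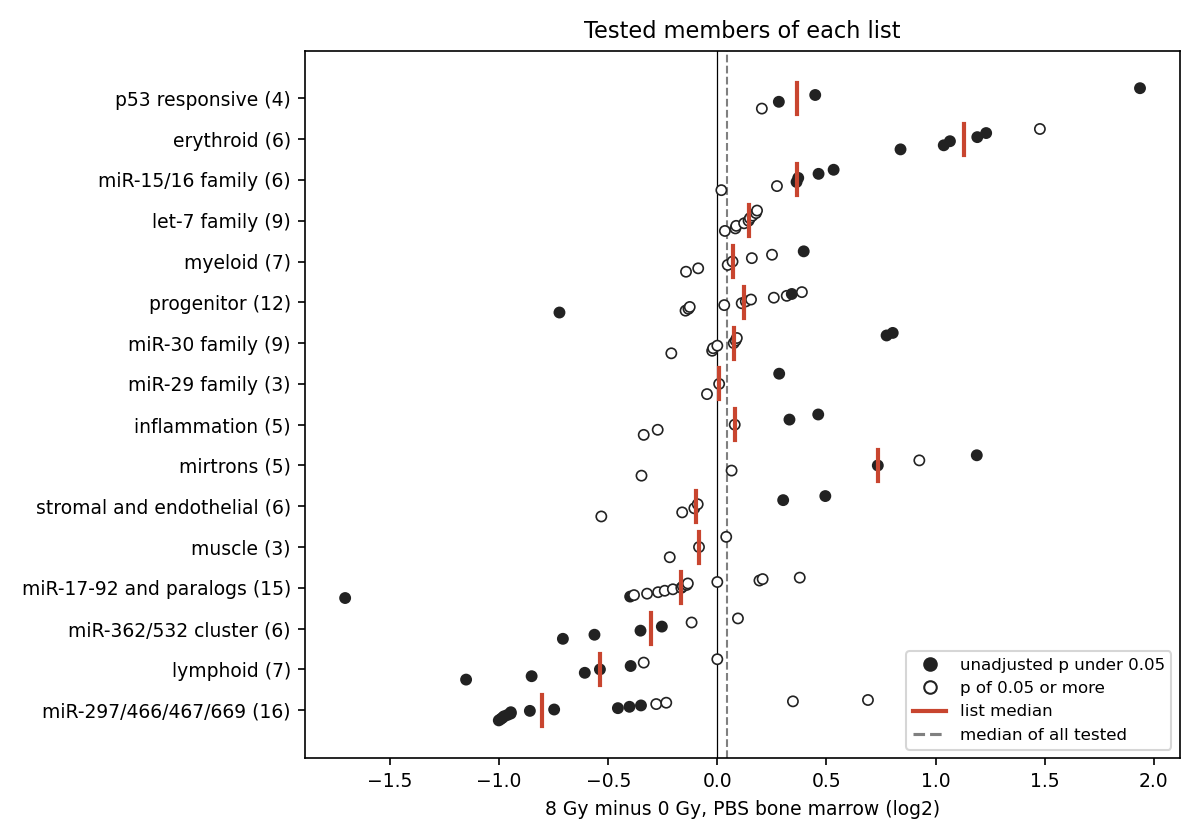
Each circle is a tested member of a list, placed at its 8 Gy minus 0 Gy difference (log2, x axis), with the number of tested members in brackets. Filled circles have an unadjusted p under 0.05, red bars are list medians and the dashed line is the median of all tested miRNAs at 0.04; the red cell members lie from 0.84 to 1.48 and the lymphoid ones from -1.15 to 0.

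Other miRNAs of stress and inflammation were mixed. miR-21a-5p, a growth and survival miRNA induced by NF-kB and STAT3 signalling, went from 3.05 and 2.85 to 3.44 and 3.39 (0.46 ± 0.10, but -0.096 with quantile normalization). miR-146b-5p, a brake on Toll-like receptor signalling, was higher by 0.33 ± 0.08, whereas its relative miR-146a-5p was below on both 8 Gy arrays, at -0.27 ± 0.14. In the miR-30 family only the miR-30a hairpin stood out. miR-30a-5p, a regulator of autophagy, differed by 0.78 ± 0.15. miR-30a-3p was detected on both 8 Gy arrays and neither 0 Gy array, and was 1.75-fold higher. That fold is an estimate that takes undetected values as measured or at the floor. miR-29c-3p, which targets collagens, differed by 0.28 ± 0.06, and miR-29a-3p and miR-29b-3p lay within 0.05 of 0.

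Cartilage and stromal miRNAs did not move together. miR-140-3p (0.49 ± 0.13) and miR-140-5p (0.30 ± 0.08), of a hairpin in a cartilage-expressed gene, were above on both 8 Gy arrays. The fibroblast miRNA miR-214-3p was below on both, at -0.53 ± 0.25, and the 3 tested miR-199 arms overlapped. miR-143-3p and both arms of miR-145 were not among the tested miRNAs. The summed scaled signal of the stromal and endothelial list, in which the miR-140 arms weigh most, was 2.79 and 2.89 at 0 Gy and 3.81 and 3.43 at 8 Gy. Tested members of that list had a median difference of -0.10, with 2 higher and 4 lower. Muscle miRNAs, which can come with marrow flushed from bone, had levels that overlapped between doses for 3 of 3 tested members, with a median of -0.08. Of 8 neuronal miRNAs only miR-128-3p was tested, and it was below on both 8 Gy arrays (-0.55 ± 0.15).

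Some of the smallest p-values belonged to miRNAs outside these families. Among the 12 higher ones, miR-721, which carries the seed of the miR-130 family, went from -2.31 and -2.12 to -1.07 and -1.20 (1.08 ± 0.11). The other 3 tested miRNAs of that seed had negative differences, the lowest of -0.43. miR-1224-5p, a mirtron, that is a hairpin spliced out as a short intron, went from 4.43 and 4.62 to 5.26 and 5.26 (0.74 ± 0.10). The mirtrons miR-3102-5p (1.19 ± 0.19) and miR-877-5p (0.93 ± 0.34) were higher too, while miR-702-3p (0.065 ± 0.14) and miR-3102-3p (-0.35 ± 0.24) overlapped between doses. The median of the 5 tested mirtrons was 0.74, but 0.22 with quantile normalization, 0.25 with normexp and 0.36 with the authors' table. The remaining higher ones were miR-211-3p, miR-5126, miR-22-5p, miR-3058-3p, miR-5128 and miR-3059-3p, with differences from 0.67 to 1.20.

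Among the 12 lower ones, miR-362-3p had the smallest p. It lies in a cluster on chromosome X within the Clcn5 gene and went from -2.73 and -2.66 to -3.40 and -3.40 (-0.71 ± 0.06, adjusted p = 0.0926 with limma). Its cluster neighbours miR-500-3p (-0.56 ± 0.08) and miR-532-5p (-0.35 ± 0.10) were below on both 8 Gy arrays as well. In the cluster 5 of 6 tested members were, against 27.9% of all tested miRNAs. The 5 include miR-362-3p and miR-500-3p, which are among the 12 lower ones by their p. This list was also chosen with earlier results of these data known, so its count is a description and not a test. miR-7a-5p, a miRNA of neuroendocrine tissue that targets the EGF receptor pathway, went from -2.23 and -2.28 to -2.73 and -2.88 (-0.55 ± 0.08). miR-690 went from 2.69 and 2.79 to 2.27 and 2.28 (-0.46 ± 0.07). miR-3069-3p, miR-5117-5p, miR-677-5p, miR-1949, miR-466b-3p and miR-3078-5p completed the set, with differences from -0.98 to -0.46.

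The largest difference of all was that of miR-3474, named here after its value was seen. Its levels were -2.80 and -1.99 at 0 Gy and -0.30 and 0.41 at 8 Gy, a difference of 2.45 ± 0.44. The arrays of a dose lay further apart than for miR-34a-5p, and its adjusted p was 0.102 with limma. In all, 16 miRNAs were higher by 1 or more on the log2 scale and 4 were lower by as much: miR-363-3p, miR-5099, miR-181b-5p and miR-466q. Of the 14 miRNAs that both arrays of one dose detected and neither of the other, 7 were detected after 8 Gy and 7 before. Those with levels that did not overlap were, besides the ones above, miR-3113-5p (1.91-fold higher), miR-5110 (1.59-fold higher), miR-28a-5p (1.36-fold lower) and miR-467d-3p (1.18-fold lower). These folds are estimates that take undetected values as measured or at the floor. The other 6, miR-21a-3p, miR-328-3p, miR-674-5p, miR-700-3p, miR-191-5p and miR-682, lay at or close to the floor. Their levels average in undetected probes and give no order. Before scaling, the probe detected on 2 arrays differed by 1.45 (i.p.) and 1.06 (i.g.) for miR-21a-3p. In the same order the values were 0.50 and 0.76 for miR-328-3p and 0.73 and 0.79 for miR-674-5p. They were 0.36 and -0.72 for miR-700-3p and -0.54 and -0.67 for miR-191-5p, and miR-682 was too weak for such a value.

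The miR-297, miR-466, miR-467 and miR-669 families, together the miR-466 group, gave the lowest list median. They are multi-copy rodent families, many of them in an intron of Sfmbt2, and many members are near-identical, so their values are uncertain singly. Whether their probes share signal was not tested. Of 61 members on the array 16 were tested and 45 were detected on 0 arrays. Of the 16, 14 were below on both 8 Gy arrays, against 27.9% of all tested miRNAs. Those lower at an unadjusted p under 0.05 numbered 12, against 15.2% of all tested. The median was -0.80 (-0.24 with normexp). The summed scaled signal of all 61, in which miR-466i-5p weighs most, did not follow, at 8.66 and 7.19 at 0 Gy and 7.70 and 8.5 at 8 Gy. miR-466h-3p went from -1.18 and -0.98 to -2.38 and -1.74 (-0.98 ± 0.28), and miR-466q from -1.91 and -1.74 to -3.18 and -2.48 (-1.0 ± 0.30). The members that were above instead were miR-669n (0.69 ± 0.30) and miR-466i-5p (0.35 ± 0.20).

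The sequences of some members are shown because they differ in their repeated letters. The set below holds family members that were lower, the member miR-669n that was higher, and both arms of miR-574, a hairpin outside the families on chromosome 5 (chr5:64970328-64970350 for the 5p arm, plus strand). Seeds are in capitals.
miR-466i-3p: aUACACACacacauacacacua
miR-466q: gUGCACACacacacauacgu
miR-467f: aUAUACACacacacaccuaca
miR-669n: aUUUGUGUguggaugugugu
miR-574-3p: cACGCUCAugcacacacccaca
miR-574-5p: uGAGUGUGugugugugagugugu

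Among the 288 tested miRNAs with a RefSeq sequence, 5 hold the letters ACACAC (1.74%), read on the miRNA strand alone. All 5 were below on both 8 Gy arrays, against 27.9% of all tested miRNAs. They were miR-466i-3p, miR-466q, miR-467f, miR-362-3p and miR-574-3p. Their differences ran from -1.0 to -0.71 with a median of -0.95, against 0.08 for those without. The complementary letters GUGUGU are in 4 (1.39%), with positive differences from 0.59 to 0.69. None of these 4 had an unadjusted p under 0.05, and miR-3082-5p overlapped between doses and was at -0.059 without the i.g. array at 0 Gy. miR-574-3p went from -4.33 and -3.96 to -5.10 and -4.84 (-0.83 ± 0.19), while miR-574-5p of the same hairpin went from 1.40 and 0.58 to 1.64 and 1.54 (0.60 ± 0.34). The letters were chosen after the values were seen, so this is a description without a test, and members with such alike letters may not be separate measurements.

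Both arms of a hairpin were compared over all tested miRNAs, whether on a list or not, and several of these hairpins are on the lists. Of 25 hairpins with both arms tested and no value at the floor, 18 had the same sign in both arms, with r = 0.305 (Spearman 0.258) across hairpins. The arms of 1 hairpin differed by as much as 1.54. For the 16 named miRNAs with over 1 probe detected on all 4 arrays, the probes had the same sign in 16, with a median gap of 0.06 between probes. The GC content of the probed stretch correlated weakly with the difference (Spearman 0.159 over 362 miRNAs), and the 118 miRNAs over 60% GC had a median of 0.09. With this GC trend removed, an alternative chosen after seeing the data, 70 miRNAs passed with limma, all 70 with the same sign as here.

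A last comparison set the PBS arms beside the 3 drug arms, each of which has its own 0 Gy and 8 Gy array. In the drug arms 26 of 371 miRNAs passed (7.01%), 23 higher and 3 lower after 8 Gy. All 26 were tested in the PBS arms, had the same sign there, and 22 had an unadjusted p under 0.05, against 34.5% of all tested. The spread in the drug fit also came from the PBS arrays, so these p-values are not independent of the PBS ones. miR-34a-5p rose in the drug arms by 2.33 (adjusted p = 0.00667 with limma), with 2.28 after amifostine, 2.08 after CBLB502 and 2.63 after nilestriol, beside 1.90 and 1.97 in the PBS arms. Under the same limma fit miR-451a rose by 1.56 (adjusted p = 0.0423), miR-223-3p by 0.65 (adjusted p = 0.0436) and miR-16-5p by 0.92 (adjusted p = 0.0423). Of 6 red cell list members 5 passed, and the list's median difference in the drug arms was 1.46. The count of 26 became 57 without the 8 Gy nilestriol array, 11 without its 0 Gy array, 2 without either CBLB502 array and 0 without any other single array. miR-181b-5p fell by 0.92 (adjusted p = 0.0491 with limma), with -1.12, -1.13 and -0.50 in the 3 arms. Amifostine and nilestriol arrays lay on another slide than the PBS and CBLB502 arrays, so for those 2 drugs slide and drug cannot be told apart.

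The difference between the PBS and the drug responses was itself tested in 1 model over the 10 bone marrow arrays. With limma, 0 of 371 miRNAs passed, 24 were under an unadjusted 0.05, and the smallest adjusted p was 0.661. Across the 354 miRNAs in both fits, the PBS and drug differences correlated at r = 0.609 (Spearman 0.606). Of 69 miRNAs higher in the PBS arms at an unadjusted p under 0.05, 58 had the same sign in the drug mean and 37 in all 3 drug arms, while for 54 lower ones the numbers were 50 and 25. Of all 354, 54.5% were higher and 43.5% lower in the drug mean, and 27.4% were higher and 16.1% lower in all 3 drug arms. Some leading PBS differences were small or of mixed sign with drugs. miR-1224-5p was at 0.04, 0.41 and -0.83 after amifostine, CBLB502 and nilestriol, miR-500-3p at 0.54, -0.05 and 0.10, and miR-3474 at 1.29, 1.05 and -0.91. The miR-466 group, at a median of -0.80 with PBS, had one of -0.12 in the drug arms, and miR-574-3p differed by 0.11.

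**Figure D4:**
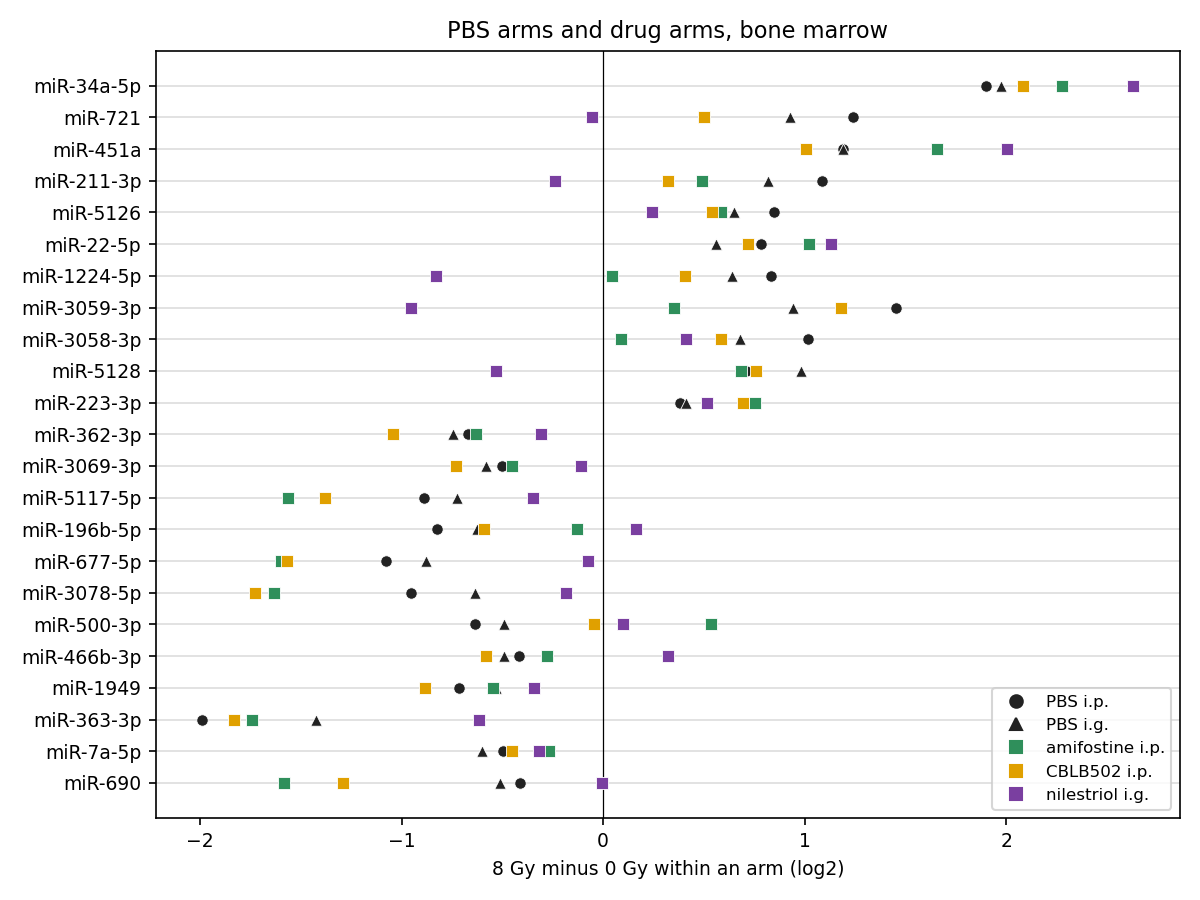
Rows are those of the 24 miRNAs with the smallest p that were also tested with the drug arms, and the x axis is the 8 Gy minus 0 Gy difference (log2) within an arm of 1 array per dose. Black circles and triangles are the i.p. and i.g. PBS arms and coloured squares the drug arms; miR-34a-5p, miR-451a and miR-22-5p lie right of 0 in all 5 arms, and miR-1224-5p and miR-3059-3p lie left of 0 with nilestriol.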

How the data were processed

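Total RNA was labelled with Cy3 and hybridized to Agilent mouse miRNA arrays. Per the file headers the authors scanned them with Agilent Feature Extraction 10.7.1.1, and the deposited files give fluorescence intensity per spot after background subtraction. The authors also deposited a table of log2 values; its column medians ran from -2.96 to -2.77 for the 4 PBS arrays, and its scaling and centring stay unknown. Here spots marked as outliers (4.42 to 5.22%) were left out, spots were averaged per probe and then per miRNA, each array was scaled to its own 75th percentile, taken over miRNAs that every array in the fit had detected, and values under the floor (median 5th percentile of detected miRNAs) were raised to it before log2. Tests used limma 3.58.1 (lmFit, eBayes; R 4.3.3), two-sided, with Benjamini-Hochberg adjustment at 0.05 over all tested miRNAs: the 4 PBS arrays alone, and the 10 bone marrow arrays with the arm as block. The fits were also run on simulated arrays with independent noise and known differences. There the PBS fit recovered 98.5% of differences of 1 and 70.6% of those of 0.5 (log2). Noise and the share of changed miRNAs were set by the simulation, so these rates do not give the power on the real arrays. The 4 PBS arrays lay on 1 slide. The numbers that pair the routes come from the labels. Across the 313 miRNAs detected on all 4 arrays, the i.p. deviations from the dose means at 0 and 8 Gy correlated at r = 0.110. With 2 pairs of arrays this cannot settle a pairing.

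The text names the 12 miRNAs with the smallest p in each direction, among those detected on both arrays of a dose and of 1 sign in both routes, those detected at 1 dose only, and list members. Members and lists were chosen with earlier results of these data known. Where labels name no separate cultures or animals beyond the pools, p-values measure only the spread between these arrays. The lists were p53 responsive, erythroid, lymphoid, myeloid, progenitor, miR-17-92 and paralogs, miR-15/16, let-7, miR-30, miR-29, inflammation, stromal and endothelial, muscle, neuronal, liver, the miR-466 group, mirtrons and the cluster of miR-362 and miR-532.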

Additional observations from a re-analysis of the deposited data

Results flagged for a closer look

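2 of 116 named or listed miRNAs with no value at the floor lay on one side of 0 in both PBS arms and on the other in all 3 drug arms. miR-99a-5p, a stem cell miRNA, differed by -0.16 and -0.13 in the i.p. and i.g. PBS arms and by 0.19, 0.10 and 1.18 after amifostine, CBLB502 and nilestriol. The PBS minus drug difference was -0.65 (adjusted p = 0.67 with limma). miR-133b-3p, a muscle miRNA, differed by -0.01 and -0.16 in the PBS arms and by 0.83, 0.04 and 1.55 in the drug arms, and its PBS minus drug difference was -0.91 (adjusted p = 0.661 with limma). Neither difference passed, and slide and drug cannot be told apart for amifostine and nilestriol.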

How the results depend on the processing

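With PBS, 0 miRNAs passed under 11 of the 19 alternatives to the limma fit, among them each array left out in turn (0 to 0). The count was 65 with normexp background, 17 with the authors' value table, 5 with the scanner software totals, 95 with an offset added in place of flooring, 70 with the GC trend of the probes removed (chosen after seeing the data), and 1, miR-34a-5p, when only miRNAs detected on all arrays were tested, with an intensity trend and robust prior, or with the spread shared over 10 arrays. With the route as a replicate block 0 passed, and miR-34a-5p had an adjusted p of 0.155. The cause was not tested. Unadjusted p-values under 0.05 numbered 67 to 86 with an array left out and 56 without scaling, which also moved the share of higher among them from 56.0% to 89.3% and the median of all differences to 0.18.

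In the drug arms the count of 26 became 1 with the percentile over all miRNAs, 4 with quantile normalization, 1 with no scaling, 42 with normexp, 3 with the authors' table, 1 with the scanner totals and 0 with no filter; it ran from 0 to 57 with an array left out. The PBS minus drug count was 1 with the scanner totals and otherwise 0.

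Of 94 named miRNAs 75 kept their direction throughout. With the scanner totals, some of which do not equal the sum of their probes (69 to 89 detected miRNAs per PBS array), miR-22-5p was at -4.59, miR-3058-3p at -0.88, miR-196b-5p at 0.78, miR-677-5p at 0.54, miR-486-3p at -0.50, miR-214-3p at 0.015, miR-106b-3p at 0.28, miR-29a-3p at 0.0028 and miR-133b-3p at 1.40. Without scaling miR-142-3p was at 0.0082, miR-142-5p at 0.064, miR-99a-5p at 0.0060, miR-92a-3p at 0.017, miR-29a-3p at 0.10 and miR-133b-3p at 0.068. With quantile normalization miR-21a-5p was at -0.096 and miR-29b-3p at -0.012; the latter was at -0.025 with the authors' table and -0.0064 with the spread shared over 10 arrays. With normexp miR-322-5p was at -0.0038 and miR-702-3p at -0.073, and miR-702-3p was at -0.030 with outlier spots kept and -0.0061 with the GC trend removed. With an array left out miR-142-3p ran from -0.50 to 0.093, miR-142-5p from -0.39 to 0.16, miR-133b-3p from -0.49 to 0.30, miR-497-5p from -0.017 to 0.45, miR-92a-3p from -0.39 to 0.0042, miR-106b-3p from -0.35 to 0.010, miR-322-5p from -0.071 to 0.041, miR-29b-3p from -0.21 to 0.12, miR-702-3p from -0.11 to 0.22 and miR-3082-5p from -0.059 to 1.30. The red cell, lymphoid, p53, miR-15/16 and miR-466 group medians kept their sign in every alternative, but not their size: they ran from 0.91 to 1.28, -0.70 to -0.33, 0.12 to 0.52, 0.13 to 0.52 and -1.02 to -0.24.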
